A study of Mus musculus with 6 samples.

Results

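The genes described here are 33 transcripts that mark myeloid and erythroid cells rather than T cells. They were followed in sorted mouse peripheral regulatory T cells (pTreg) as a check of what else the sorted RNA held. The list was taken by gene symbol: 31 of the 33 genes had a named probe on the array, and each was read from its probe with the highest mean over the 6 arrays. Of those 31 genes, 18 were above background on all 6 arrays, 10 on 1 to 5 arrays and 3 on none. A gene was tested when it was above background on at least 2 arrays, which left 26 of the list among 9597 tested genes. Cd68 and Hbb-b1 had no named probe and are not analysed here.

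The series held 3 arrays of control cells (Ctrl) and 3 of Blimp1-deficient cells (CKO), all hybridised to whole-genome mouse bead arrays. Ctrl cells were Prdm1+/+ CD4-Cre+ and carried the allotype Thy1.1, whereas CKO cells were Prdm1flox/flox CD4-Cre+ on C57BL/6 and carried Thy1.2. Both groups therefore expressed Cre from the CD4 promoter, which is active in all T cells, and both carried a Foxp3-GFP reporter. Naive CD4+ T cells pooled from lymph nodes and spleen of young adult donors were injected together into RAG1-/- hosts, and CD4+ GFP+ cells were sorted from the hosts some weeks later, to a high purity by the study's methods. RAG1-/- mice make no T or B cells of their own but keep granulocytes, monocytes, macrophages, NK cells and red cell precursors, which a gate on CD4 and Foxp3-GFP would remove. One label field calls the cells peripheral Treg and another iTreg. The arrays of replicate 1 lay on slide 1, and those of replicates 2 and 3 on slide 2. The Ctrl and CKO arrays of replicates 2 and 3 each shared a date with their partner and the letters P+I, which no source used here spells out, whereas the labels of replicate 1 lack both.

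Neutrophils store antimicrobial proteins in granules that are filled in steps, from proteases and peroxidase in early precursors to lactoferrin, cathelicidin and gelatinase in later ones. Monocytes and macrophages are known for lysozyme, the endotoxin co-receptor Cd14, lectin receptors and Fc receptors that signal through shared adaptor chains. Red cell precursors make globin and haem. In the inflamed gut of a lymphopenic host that has received T cells, granulocytes and monocytes are common, and none of these genes is a usual marker of a Treg cell.

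The promoters of S100a8 and S100a9, neighbours whose products form calprotectin, and of Ngp, Elane and Hba-a1 are shown because these genes carry the pattern below in granulocyte and red cell transcripts. Each line gives the 250 bases before the RefSeq start in GRCm38.p6, 5′ to 3′ on the gene's strand. Capitals mark matches on either strand to TTGCNNAA (a C/EBP family motif), AGGAAGT (PU.1 and other ETS factors) or AGATAA, which factors of the GATA family read.
S100a8 (chr3:90668821-90669070, plus strand): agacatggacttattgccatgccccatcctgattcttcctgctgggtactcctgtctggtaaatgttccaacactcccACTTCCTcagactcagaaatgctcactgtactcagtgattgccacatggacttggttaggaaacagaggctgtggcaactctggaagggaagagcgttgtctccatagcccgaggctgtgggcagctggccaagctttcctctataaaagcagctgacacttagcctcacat
S100a9 (chr3:90695722-90695971, minus strand): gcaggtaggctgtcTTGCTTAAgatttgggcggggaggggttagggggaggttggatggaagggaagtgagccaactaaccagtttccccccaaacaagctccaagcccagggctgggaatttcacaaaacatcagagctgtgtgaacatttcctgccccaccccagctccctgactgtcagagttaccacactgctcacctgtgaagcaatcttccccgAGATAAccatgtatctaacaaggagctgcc
Ngp (chr9:110419558-110419807, plus strand): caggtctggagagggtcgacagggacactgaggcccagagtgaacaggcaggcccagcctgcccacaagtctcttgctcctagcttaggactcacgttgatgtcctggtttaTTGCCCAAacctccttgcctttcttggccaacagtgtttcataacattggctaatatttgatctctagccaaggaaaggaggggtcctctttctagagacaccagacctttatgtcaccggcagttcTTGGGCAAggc
Elane (chr10:79886062-79886311, plus strand): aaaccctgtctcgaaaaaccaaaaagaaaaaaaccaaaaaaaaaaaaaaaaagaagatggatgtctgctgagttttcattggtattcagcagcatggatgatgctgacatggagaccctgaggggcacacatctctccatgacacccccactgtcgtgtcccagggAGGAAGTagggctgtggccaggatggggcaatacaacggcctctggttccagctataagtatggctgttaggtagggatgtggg
Hba-a1 (chr11:32283422-32283671, plus strand): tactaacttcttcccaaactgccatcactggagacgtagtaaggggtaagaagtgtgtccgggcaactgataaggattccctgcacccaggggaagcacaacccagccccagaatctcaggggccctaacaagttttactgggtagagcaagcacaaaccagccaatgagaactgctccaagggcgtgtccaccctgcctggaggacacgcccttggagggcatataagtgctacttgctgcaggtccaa

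Of 32851 promoters of this length, 9.56% held TTGCNNAA, 7.69% AGGAAGT and 9.99% AGATAA. Promoters were given for 27 genes of the list, and TTGCNNAA occurred in those of 8 genes, AGGAAGT in those of 6 and AGATAA in those of 5. The Ngp promoter held 2 matches to TTGCNNAA. S100a8 and Elane each held 1 match to AGGAAGT. The promoter of Camp, a neutrophil gene with the same replicate pattern, was read too but is not shown, and held none of the 3 motifs. The Hba-a1 promoter held none of the 3 motifs as searched. It does hold TGATAA, which differs from AGATAA in its first letter and was not searched for. A match is a description of the letters only.

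Each array's background was set from 1506 probes for odorant and vomeronasal receptors, genes that immune cells are not known to use, at their 95th percentile, and lay between 6.17 and 9.52 intensity units. Between 32.4% and 38.3% of probes were above it. The T cell list was present throughout, with 11 of its 12 measured genes above background on all 6 arrays and a summed intensity of 21919 to 34125. Prdm1, the deleted gene, was read by 1 probe above background, at 18.9, 50.9 and 49.2 units on the arrays labelled Ctrl and 561, 341 and 704 on those labelled CKO. That is higher, not lower, in CKO (log2 difference 3.82 ± 0.45 SE, limma adjusted p = 0.038). Where the probe lies relative to the loxP-flanked exons was not known here. It therefore does not check the deletion, and every direction below is that of the labels.

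Levels over the 3 replicate pairs were set side by side first. The summed intensity of the listed genes was 42357, 4768 and 44310 units on Ctrl arrays 1, 2 and 3, and 19470, 3621 and 31098 on CKO arrays 1, 2 and 3. By this sum both arrays of replicate 2 were lowest, and the Ctrl array was above its CKO partner in each pair. The brightest genes weigh most in the sum, with S100a8 alone at 20847 units on Ctrl array 3. Counted by gene, 11 were lower and 12 higher in CKO in pair 2. In such bulk RNA, fewer cells of a type and less RNA per cell cannot be told apart. The mean of a pair was lowest in replicate 2 for 24 of the 26 tested genes, against 28.2% of all tested genes. Both arrays of replicate 3 were above both of replicate 2 for 22 of 26 genes, against 23.4% of all genes, and the same count of 22 held for replicate 1 over replicate 2, against 18.3%. Fcgr2b, Fcgr3 and Alas2, below background on both replicate 2 arrays, passed the filter only through the other replicates. All of them are among the 24 and some are among each 22, so the filter in part set these counts in advance.

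**Figure D1:**
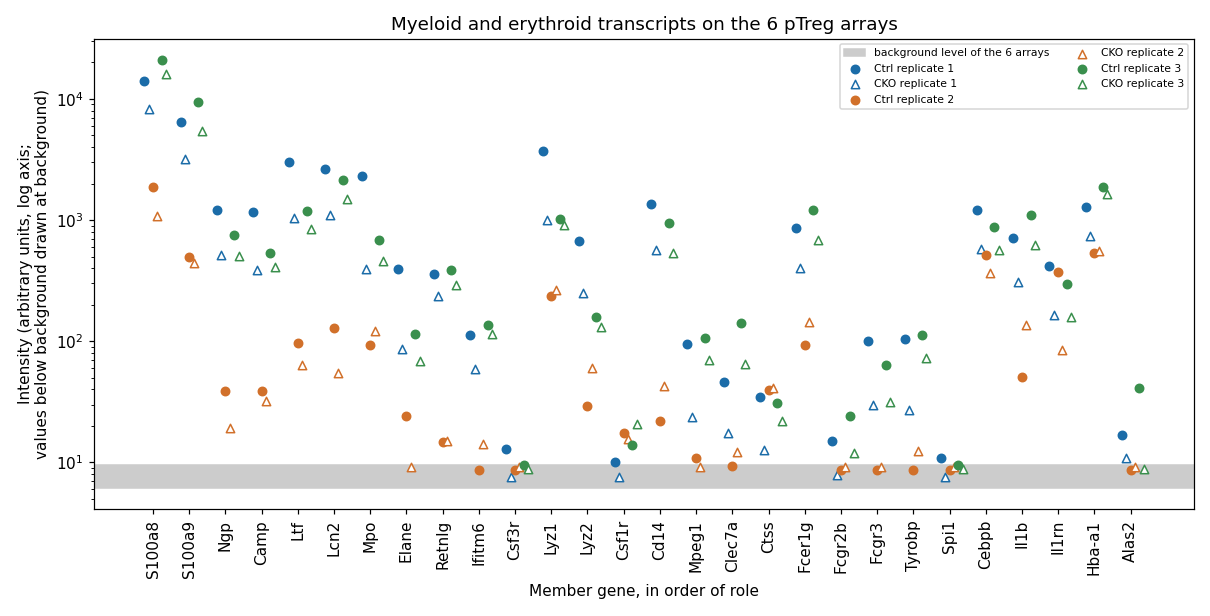
Intensity (arbitrary units, log axis) of the 28 listed genes above background on at least 1 array, with filled circles for Ctrl and open triangles for CKO, coloured by replicate. Values below background are drawn at background, and the grey band spans the background of the 6 arrays, 6.17 to 9.52. The replicate 2 points lie lowest for most granule genes, while Csf1r and Ctss lie in a narrow range on all arrays.

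Replicates 2 and 3 lay on 1 slide, so a slide cannot separate them. In that comparison, 17 of the 26 genes were higher in replicate 3 at an adjusted p under 0.05, against 1.15% of all genes, and none was lower at that threshold, against 0.542%. Fcgr2b, Fcgr3 and Alas2 were below background on both replicate 2 arrays and entered the test through the other replicates. Of the 23 genes above background on an array of replicate 2, 16 passed, against 0.991% of all such genes, a count added after the values were seen. Each replicate here is 1 Ctrl and 1 CKO array paired by dates and slides in the labels. These p values therefore rest on how far Ctrl and CKO of a pair disagree. The median log2 difference was 3.04 over the list and 0.04 over all genes. The count depended on single arrays: 9 genes passed without Ctrl replicate 2 and 11 without Ctrl replicate 3. Without a genotype term 6 passed. An F test over all 3 pairs with genotype as a covariate called 17 of the 26 genes, against 3.22% of all genes, and 9 without Ctrl replicate 2. The 17 included Fcgr3, below background on both replicate 2 arrays.

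**Figure D2:**
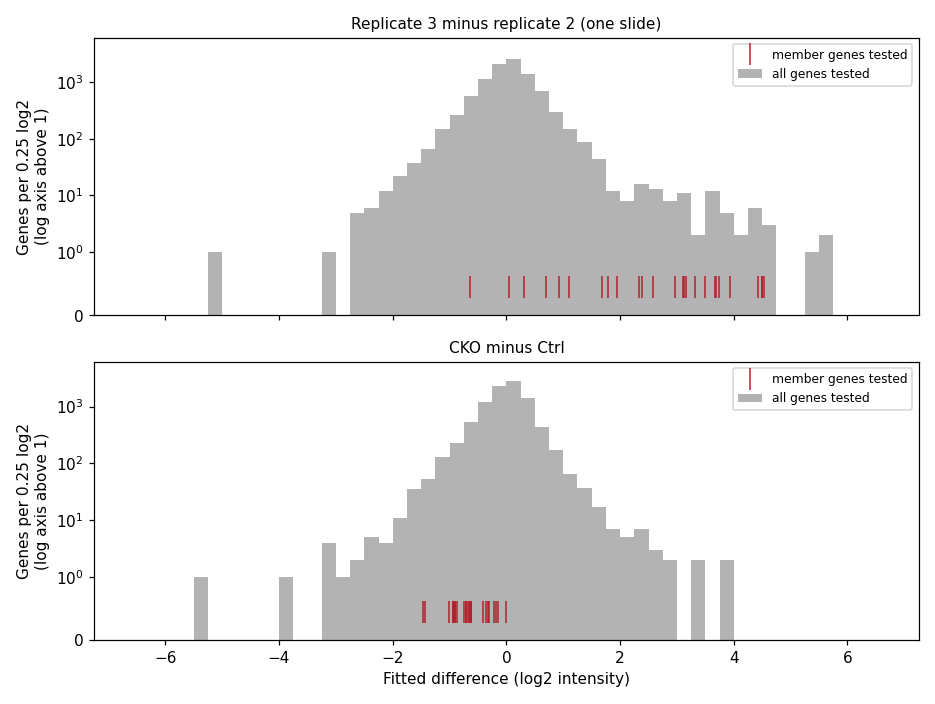
Fitted log2 differences of all 9597 tested genes (grey bars, genes per bin of 0.25, log axis above 1) and of the 26 tested genes of the list (red ticks), for replicate 3 minus replicate 2 (top) and CKO minus Ctrl (bottom). The ticks centre on 3.04 in the top panel and on -0.67 in the bottom panel, while all genes centre on 0.04 and 0.02.

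All 10 tested neutrophil genes had a higher mean in replicate 3 than in replicate 2, and 9 passed the test. S100a8, a calprotectin subunit, read 14067, 1865 and 20847 units on Ctrl arrays 1 to 3 and 8260, 1083 and 15919 on CKO arrays 1 to 3. Its partner S100a9 read 6416, 497 and 9513 on Ctrl and 3216, 442 and 5438 on CKO. Every array of replicates 1 and 3 was above both arrays of replicate 2 for these 2 genes. Replicate 3 exceeded replicate 2 by 12.8-fold for S100a8 (log2 3.68 ± 0.24 SE, limma adjusted p = 0.0014) and by 15.3-fold for S100a9 (adjusted p = 0.0016).

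Later granule proteins followed. Ngp, a neutrophil granule protein, read 1212, 39.0 and 753 units on Ctrl and 513, 19.3 and 503 on CKO. Camp, the cathelicidin, read 1163, 38.5 and 537 on Ctrl and 390, 31.8 and 411 on CKO. The iron-binding proteins Ltf and Lcn2 also had their lowest values on the replicate 2 arrays. Ltf (lactoferrin) read 3009, 96.6 and 1184 on Ctrl and 1040, 63.8 and 843 on CKO. Lcn2 (lipocalin 2) read 2640, 128 and 2145 on Ctrl and 1105, 54.3 and 1487 on CKO. Replicate 3 was 22.4-fold above replicate 2 for Ngp, 21.4-fold for Lcn2, 13.4-fold for Camp and 12.7-fold for Ltf, and the limma adjusted p values ran from 0.0012 for Ngp to 0.0049 for Camp.

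Retnlg, a secreted resistin-like protein of neutrophils, read 361, 14.7 and 387 units on Ctrl and 237, 15.1 and 294 on CKO. Its replicate 3 arrays were 22.6-fold above those of replicate 2 (limma adjusted p = 0.0012). Ifitm6, a membrane protein of the interferon-induced family, was above background on 5 arrays. It was 11.3-fold higher in replicate 3 (adjusted p = 0.0088), with Ctrl replicate 2 held at background.

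The early granule genes also had their lowest pair mean in replicate 2. Mpo (myeloperoxidase) read 2289, 93.1 and 679 units on Ctrl and 398, 122 and 458 on CKO. Elane (neutrophil elastase) read 391, 24.1 and 115 on Ctrl and 86.7, 8.15 and 68.4 on CKO, the 8.15 lying below background. Both were highest on Ctrl array 1. Elane was 5.98-fold higher in replicate 3 than in replicate 2, with CKO replicate 2 held at background (limma adjusted p = 0.021). Mpo was 5.23-fold higher but did not pass (adjusted p = 0.12), whereas its second brightest probe differed by log2 2.64 (adjusted p = 0.014). Csf3r, the receptor of the granulocyte growth factor G-CSF, was above background on 1 array only and was not tested.

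Genes of monocytes, macrophages and dendritic cells fell into 3 kinds. Cd14 read 1363, 21.8 and 941 units on Ctrl and 571, 43.0 and 532 on CKO, and was 23.1-fold higher in replicate 3 than in replicate 2 (limma adjusted p = 0.009). Mpeg1, a pore-forming protein of phagocytes, was 8.66-fold higher with CKO replicate 2 held at background (adjusted p = 0.02). Clec7a, the receptor for fungal glucan, was 8.92-fold higher (adjusted p = 0.021), but its other probe above background on all 6 arrays differed by log2 1.06 only (adjusted p = 0.34).

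The lysozymes were higher in replicate 3 than in replicate 2 without passing the test. Lyz1 read 3743, 235 and 1017 units on Ctrl and 1008, 266 and 914 on CKO. Lyz2 read 667, 29.1 and 159 on Ctrl and 248, 60.3 and 132 on CKO. For both, the arrays of replicate 2 were lowest and Ctrl array 1 was highest. The limma adjusted p was 0.11 for Lyz1 and 0.15 for Lyz2. They are close paralogs, and how far each probe reads the other transcript was not tested.

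Other genes of mature macrophages and dendritic cells were read as follows. Itgam (CD11b), Itgax (CD11c) and Adgre1, a macrophage surface receptor, were above background on 0 of 6 arrays. Csf1r, the receptor of macrophage growth factor, read between 6.90 and 20.7 units and had its lowest pair mean in replicate 1. Ctss, a lysosomal protease of antigen-presenting cells, read between 12.7 and 41.2 units, with its highest value on CKO array 2. Neither Csf1r (limma adjusted p = 0.97) nor Ctss (adjusted p = 0.45) passed between replicates 3 and 2.

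All 4 genes of Fc receptors and their adaptors had their lowest pair mean in replicate 2. Fcer1g, the shared signalling chain of Fc receptors, read 856, 92.6 and 1206 units on Ctrl and 404, 145 and 679 on CKO. It was 7.81-fold higher in replicate 3 than in replicate 2 (limma adjusted p = 0.024). Tyrobp, an adaptor of activating receptors on myeloid and NK cells, was 8.71-fold higher with Ctrl replicate 2 held at background (adjusted p = 0.041). Fcgr3, a low-affinity IgG receptor, was below background on both arrays of replicate 2 and read 63.1 and 31.6 units in replicate 3, at least 5.01-fold higher. The inhibitory receptor Fcgr2b, also below background on both replicate 2 arrays, was at least 1.90-fold higher.

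Of the transcription factors, Spi1 (PU.1) was above background on 1 array and was not tested. Cebpb, a factor that myeloid and many other cells use, read 1210, 513 and 872 units on Ctrl and 579, 367 and 570 on CKO. Its 1.62-fold difference between replicates 3 and 2 did not pass (limma adjusted p = 0.22).

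The 2 interleukin 1 genes parted. Il1b, the inflammatory cytokine, read 707, 50.8 and 1099 units on Ctrl and 310, 137 and 628 on CKO, and was 9.97-fold higher in replicate 3 than in replicate 2 (limma adjusted p = 0.047). Il1rn, the secreted receptor antagonist that blocks interleukin 1, read 419, 369 and 298 on Ctrl and 166, 83.9 and 158 on CKO. Its replicates 3 and 2 differed little (1.23-fold, limma adjusted p = 0.73), while every Ctrl array was above every CKO array on this probe. A second probe, above background on all 6 arrays, read 548, 200 and 247 on Ctrl and 220, 77.4 and 163 on CKO. On it CKO was lower in each pair, but CKO array 1 was above Ctrl array 2. Replicate 1 was log2 1.14 above the mean of replicates 2 and 3 there (limma adjusted p = 0.066).

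Of the 2 tested erythroid genes, 1 passed the test between replicates 3 and 2. Hba-a1, adult alpha globin, read 1277, 531 and 1858 units on Ctrl and 733, 557 and 1629 on CKO. It was 3.20-fold higher in replicate 3 than in replicate 2 (limma adjusted p = 0.042). Its near-identical copy Hba-a2 had no named probe, so the 2 loci cannot be told apart. Alas2, the first enzyme of haem synthesis in red cell precursors, was above background on 3 arrays, with 40.7 units on Ctrl array 3 and 16.7 and 10.8 on the arrays of replicate 1.

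Replicate 1 lay alone on slide 1, so slide, label differences and replicate cannot be told apart there. Against the mean of replicates 2 and 3, 8 of the 26 genes were higher in replicate 1 at an adjusted p under 0.05, against 0.698% of all genes, and none was lower at that threshold, against 1.39%. They were Ngp, Camp, Ltf, Lcn2, Elane, Retnlg, S100a9 and Cd14, with differences from 2.47-fold for S100a9 (limma adjusted p = 0.049) to 6.32-fold for Ltf (adjusted p = 0.026). No gene of the list passed once Ctrl or CKO replicate 1 or 2 was left out. Set beside replicate 3, with no test, replicate 1 was 2.81-fold higher for Lyz2, 2.08-fold for Elane and 1.77-fold for Ltf. Replicate 3 was 3.34-fold higher for Clec7a, 1.80-fold for Hba-a1 and 1.69-fold for S100a8. Second probes of Lyz2 and Clec7a did not part these replicates. The Lyz2 probe read 125 (Ctrl) and 36.6 (CKO) units in replicate 1, and 71.5 and 39.4 in replicate 3. For Clec7a these values were 69.5 and 18.2, and 54.0 and 31.3.

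CKO was then set against Ctrl within each pair. In pair 1, all 26 genes were lower in CKO, against 46.3% of all genes above background on an array of that pair. In pair 3, 25 of 26 were lower, against 51.6%, the exception being Csf1r. In pair 2, where most listed genes had their lowest mean, 11 were lower and 12 higher, against 50.7% lower, and for 3 genes both arrays were below background. The median log2 difference, CKO minus Ctrl, was -1.26, 0.04 and -0.59 in pairs 1, 2 and 3, beside 0.04, -0.01 and -0.02 over all genes. The T cell list also had negative medians, -0.56, -0.23 and -0.33 over the 11 genes tested. Their part in the values of the list was not tested.

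**Figure D3:**
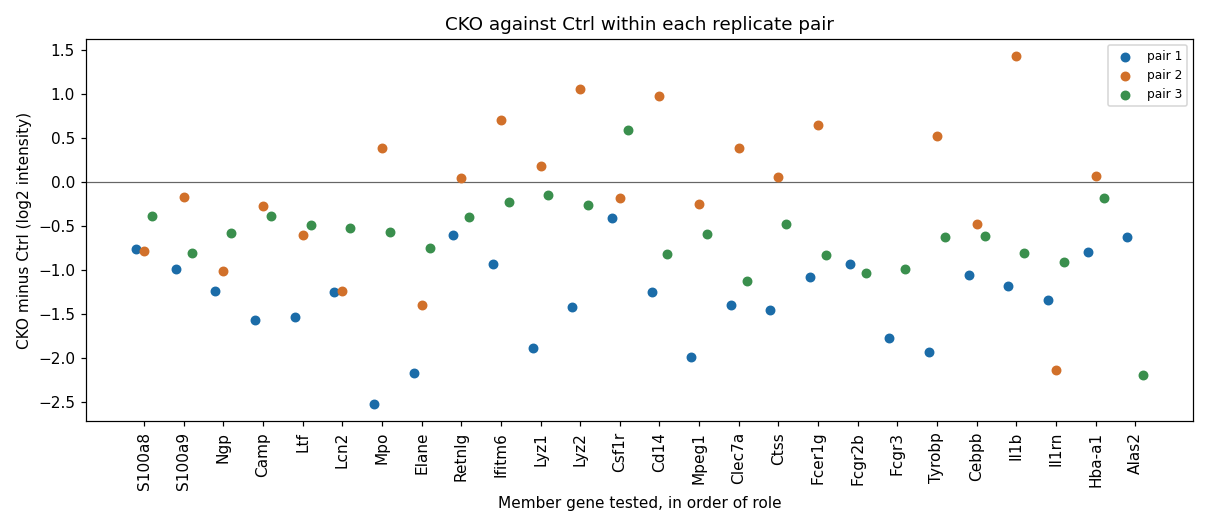
CKO minus Ctrl (log2 intensity) within pairs 1, 2 and 3 for each of the 26 tested genes, 1 point for each pair in which at least 1 array was above background. All pair 1 points and 25 pair 3 points lie below 0, and 12 pair 2 points lie above it.

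In all 3 pairs, 10 of the 26 genes were lower in CKO, against 17.1% of all genes, and none was lower by 2-fold or more in each, against 0.792%. The 10 were S100a8, S100a9, Ngp, Camp, Ltf, Lcn2 and Elane of the neutrophil genes, with Mpeg1, Cebpb and Il1rn. Cd14, Fcer1g, Il1b and Lyz2 were lower in pairs 1 and 3 and higher in pair 2, where Il1b was 1.43 higher on the log2 scale in CKO. A second Lyz2 probe, above background on all 6 arrays, was lower in CKO in each pair. In pair 2 it read 31.4 units on Ctrl and 21.7 on CKO.

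Across all arrays, limma without a block called none of the 26 genes, against 0.271% of all genes in either direction (0.156% lower and 0.115% higher in CKO). At an unadjusted p under 0.05, 1 gene, Il1rn, was lower, against 4.73%, and it also met the study's limit of 1.5-fold, against 4.37%. On the probe used, it was the only listed gene whose groups did not overlap with Ctrl above CKO, against 7.11% of all genes. None had CKO above Ctrl, against 5.94%. On the second Il1rn probe the groups overlapped. All 26 fitted differences were negative, with a median of -0.67 beside 0.02 over all genes. Without a block, the sign was not fixed by all arrays. For 17 of the 26 genes it turned in at least 1 fit that left out an array. Those fits had no replicate block, so an array left out also left its partner unpaired, and differences between pairs entered the value. S100a8, S100a9, Ngp, Camp, Ltf and Lcn2 were among the 17, though lower in CKO in all 3 pairs. For Ifitm6, Lyz1, Lyz2, Csf1r, Cd14 and Il1b the sign turned on slide 2 alone. Csf1r also turned with a higher background or with no floor. For S100a8 the difference was -0.65 ± 1.15 (SE), an error larger than the difference itself (limma adjusted p = 0.97). With the replicate number as a block, its error was 0.19 (limma adjusted p = 0.16).

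With the replicate number as a block, the list gave 1 call. Il1rn was lower in CKO by log2 -1.46 ± 0.26 (SE, limma adjusted p = 0.049), against 1.16% of all genes lower, and lower in 3 of 3 pairs. Without the block the same difference had an adjusted p of 0.16. Over the 15 alternatives its adjusted p ran from 0.018 to 0.61, its sign held in each, and with every probe tested on its own under the block it was 0.062. A second Il1rn probe gave -1.09 (adjusted p = 0.088). At an unadjusted p under 0.05, 12 of the 26 were lower under the block, against 9.22%, and none was higher, against 6.81%. Among the neutrophil genes, 7 of 10 were in that set, and Elane came nearest to passing, at -1.44 ± 0.29 (adjusted p = 0.062). For Mpo, the second brightest probe alone fell below the threshold, at -1.54 (adjusted p = 0.049), whereas the brightest gave -0.90 (adjusted p = 0.44).

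Further genes of these lineages, from lists beyond the 33, were read the same way. Of 43 further myeloid genes, 24 were tested. At an adjusted p under 0.05, 9 were higher in replicate 3 than in replicate 2, against 1.15% of all genes. In replicate 1, 5 were higher than in the mean of replicates 2 and 3, against 0.698%. Not all of these 5 had their highest pair mean in replicate 1. None passed between CKO and Ctrl without the block. With the block Chil3, a chitinase-like protein of macrophages and neutrophils named after its values were seen, was lower in CKO (limma adjusted p = 0.028). The first 4 with a probe were Cybb, Ncf1, Ncf4 and Cd33. Cybb was above background on no array, Ncf1 was above it on 3 arrays and Ncf4, like them an oxidase subunit, read 439 to 894 units, and neither Ncf1 nor Ncf4 passed in any of these comparisons. Cd33, a sialic acid receptor, was below background on both replicate 2 arrays and read 43.1 and 26.8 units in replicate 3, and was 1 of the 9. Of 15 further erythroid genes 5 were tested, and Hbb-bt and Car1 passed as higher in replicate 3 than in replicate 2. The adult beta globins Hbb-bs and Hbb-bt read 707 to 3103 units, both highest on a replicate 3 array.

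Few markers of other cell types were above background on every array. On 1 to 5 arrays only, 5 of 10 measured B cell genes and 7 of 12 NK cell genes were above it. So were 6 of 8 platelet and 7 of 10 intestinal epithelial genes. No B cell, NK cell, platelet or intestinal epithelial gene was above background on all 6 arrays, and 1 of 8 stromal and endothelial genes was. That gene, Pecam1 (CD31), which leukocytes also carry, was named after its values were seen. It read 20.1, 48.6 and 27.2 units on Ctrl and 53.6, 88.5 and 69.9 on CKO, so every CKO array was above every Ctrl array. Its log2 difference of 1.21 had a limma adjusted p of 0.32 without the replicate block and 0.040 with it. Among 9 mast cell, basophil and eosinophil genes, Hdc and Prg2 were above background throughout and 3 on no array. Of the 5 tested, 1 passed between replicates 3 and 2. That was Hdc, the histamine-forming enzyme, named after its values were seen and 13.8-fold higher in replicate 3 (limma adjusted p = 0.0020). Prg2 went the other way, with a log2 difference of -0.74 that did not pass (limma adjusted p = 0.69). No T cell gene was called between replicates 3 and 2, between replicate 1 and the mean of replicates 2 and 3, or between CKO and Ctrl. Cd3e, a chain of the T cell receptor complex, read 2337 to 4760 units. Foxp3, whose reporter the cells were sorted on and which was named after its values were seen, varied more. It read 480, 212 and 141 units on Ctrl arrays 1 to 3 and 433, 165 and 216 on CKO arrays 1 to 3. Replicate 1 was 2.52-fold above the mean of replicates 2 and 3, just short of passing (limma adjusted p = 0.052).

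**Figure D4:**
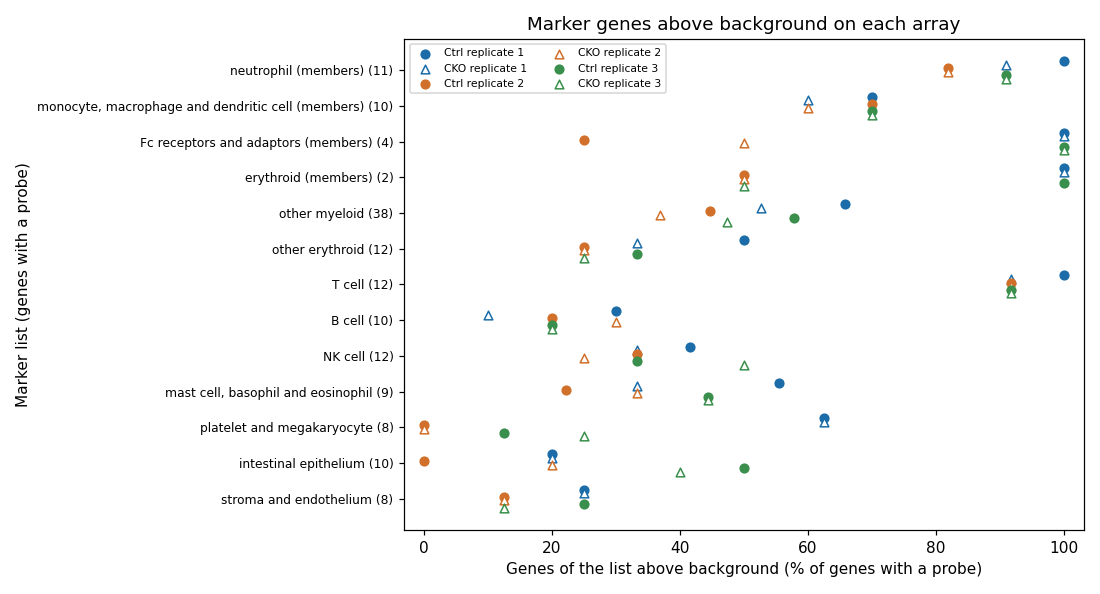
Share of each marker list above background on each array (% of genes with a probe, number in brackets), with filled circles for Ctrl and open triangles for CKO, coloured by replicate. The T cell list stays above 90% on all arrays, the Fc receptor and adaptor list drops to 25% and 50% in replicate 2, and the B cell list stays at 30% or less.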

How the data were processed

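Total RNA was amplified and hybridised by the authors to Illumina MouseWG 6v2 bead arrays. The deposited values are linear intensities, background-subtracted in GenomeStudio and quantile normalized by the authors, which from the values was done within each slide. They were quantile normalized again over the 6 arrays, raised to each array's background, and taken to log2. Between 35.4% and 36.0% of deposited intensity values were below 0. Of 45281 probes, 34885 had 1 gene symbol, 18 several and 10378 none. The brightest probe of each gene was tested with limma 3.58.1 in R 4.3.3 (Benjamini-Hochberg adjustment, threshold 0.05), checked on simulated data. The simulated arrays had no differences between pairs, so they do not check the fit without a block on pairs that differ as these do. CKO was fitted without a block, since the study's methods name limma and no block. The pairing was taken from dates and slides in the labels, and same-numbered Ctrl and CKO arrays deviated together (r = 0.51, 0.49 and 0.56), so the blocked value is given where it changes a call. All 33 genes are named by role, with up to 4 genes in list order from each other list.

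The genes and lists were chosen with earlier results of these data known. Pair differences with both arrays below background were left out of the pair counts, a choice made after the values were seen. For the listed genes all of these lay in pair 2, where background was 8.67 on Ctrl and 9.14 on CKO. Kept at background they could only count as higher in CKO. The unchanged counts of listed genes lower in CKO are therefore no check of this choice. The number of arrays limits the precision, and P values for CKO against Ctrl measure the spread between 3 replicates per group. In the comparisons of replicates each replicate is 1 Ctrl and 1 CKO array. Their p values thus measure only how far Ctrl and CKO of a pair disagree, and not a spread between independent samples of a replicate. Alternatives are in the closing section.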

Additional observations from a re-analysis of the deposited data

How the results depend on the processing

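Limits. With 3 arrays a group and pairs that differ many-fold, the fit without a block has wide errors for most listed genes. Signal near background limits Csf1r, Fcgr2b, Csf3r, Spi1 and Alas2. The cause of the changes below was not tested, except that the fits without a floor or without a filter change which dim values and genes are tested.

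For CKO against Ctrl, the listed genes called numbered 1 with no filter on dim probes, 1 with the replicate block, 1 with the replicate block and every probe tested on its own (a setting chosen after seeing the data, as was every probe on its own in the replicate comparisons), 1 at the study's thresholds (unadjusted p and 1.5-fold) and 0 in each fit that left out an array. The genes called in all numbered 26, and 49 with no floor, 154 with no filter, 183 with the replicate block, 157 with the replicate block and every probe, 16 with slide as a block, 0 on slide 2 alone, 713 at the study's thresholds and 1 to 10 with an array left out. On the probes used, the replicate block changed no call of a listed gene other than Il1rn. With every probe tested on its own, the 1 call under the block was the second brightest Mpo probe, and no Il1rn probe passed.

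Signs turned on slide 2 alone, to a log2 difference of 0.24 for Ifitm6, 0.0104 for Lyz1, 0.39 for Lyz2, 0.20 for Csf1r, 0.0782 for Cd14 and 0.31 for Il1b. Csf1r gave 0.14 with background at the 99th percentile and 0.0102 with no floor. For CKO against Ctrl, the fits that left out an array had no replicate block. With an array left out the log2 difference ran from -1.71 to 0.49 for S100a8, -1.98 to 0.42 for S100a9, -2.49 to 0.63 for Ngp, -2.20 to 0.47 for Camp, -2.30 to 0.42 for Ltf, -2.41 to 0.51 for Lcn2, -2.15 to 0.16 for Mpo, -1.88 to 1.05 for Retnlg and -1.43 to 0.69 for Ifitm6. It ran from -1.64 to 0.35 for Lyz1, -1.38 to 0.88 for Lyz2, -0.32 to 0.41 for Csf1r, -2.27 to 0.86 for Cd14, -1.75 to 0.21 for Clec7a, -1.57 to 0.28 for Fcer1g, -1.56 to 0.66 for Il1b and -0.82 to 0.0841 for Hba-a1.

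For the F test over the pairs, 1 listed gene passed with no genotype term and 9 to 18 with an array left out. Over all genes 309 passed, and 558 with background at the 99th percentile, 1072 with no floor, 2709 with no filter, 6 with no genotype term and 79 to 197 with an array left out. For replicate 3 against replicate 2, 6 listed genes passed with no genotype term and 9 to 19 with an array left out. Over all genes 491 passed with no floor, 1157 with no filter, 24 with no genotype term and 50 to 215 with an array left out. Leaving out an array gave -0.41 to 0.48 for Csf1r and -0.20 to 0.81 for Il1rn.

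For replicate 1 against replicates 2 and 3, 19 listed genes passed with no filter, 0 with no genotype term and 0 to 8 with an array left out. Over all genes 331 passed with background at the 99th percentile, 761 with no floor, 1925 with no filter, 0 with no genotype term and 0 to 139 with an array left out. Fcgr2b gave 0.15 with no floor and Alas2 -0.46 with background at the 99th percentile. With an array left out the log2 difference ran from -0.44 to 0.52 for Alas2, -0.68 to 0.35 for Clec7a, -0.43 to 0.0946 for Fcgr2b, -0.38 to 0.36 for Hba-a1, -0.0874 to 1.48 for Mpeg1 and -0.15 to 1.73 for Tyrobp.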
